A study of Mus musculus with 2 samples.

Results

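Claudins are the membrane proteins that give tight junctions their selectivity, and 10 of them were followed from nephron progenitors to collecting duct in newborn mouse kidney: Cldn1, Cldn2, Cldn3, Cldn4, Cldn5, Cldn6, Cldn8, Cldn10, Cldn16 and Cldn19. They were taken by symbol from the 32285 genes of the deposited matrices, which list 22 further claudins. The material was 2 single-cell RNA sequencing libraries of kidney from mice at postnatal day 0, both with the genotype Rbpj c/+ ; Foxd1cre/+, that is, 1 copy of a conditional allele of Rbpj, which encodes the DNA-binding factor of the Notch pathway, and a Cre recombinase driven by Foxd1, a gene of kidney stromal progenitors. Every cell shares this genotype and other genotypes were not analysed here, so the comparisons below are between cell classes and not between genotypes. The labels do not say whether a library is 1 animal or a pool. Replicates 1 and 2 are named by deposit order only, and p-values measure only the spread between these 2 libraries.

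Claudins line the paracellular space between epithelial cells. Some seal it, and others form pores that let chosen ions or water pass. Cldn2 and the Cldn10 proteins form pores, Cldn16 and Cldn19 act together in the thick ascending limb where calcium and magnesium are reabsorbed between cells, Cldn4 and Cldn8 work in the distal nephron and collecting duct, Cldn5 is the main claudin of blood vessel endothelium, and Cldn6 is known from embryonic epithelia. Because neighbouring segments carry different claudins, the set present follows the change from a leaky proximal to a tight distal epithelium.

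A barcode was called a cell from 3000 unique molecular identifiers (UMIs, counted RNA molecules) and 500 genes upward, provided that mitochondrial UMIs made up no more than 20%. After removal of predicted doublets, replicate 1 held 5284 cells with a median of 14730.5 UMIs and replicate 2 held 4064 cells with a median of 19784 UMIs. Fixed marker genes, none of them a claudin, assigned 79.6% and 82.3% of these cells to 19 classes, and the tests used 18 classes, each with 20 cells or more per library. A class cut from marker scores is a range and not a sharp type: 0 to 36.0% of a class's cells lay close to the boundary with another class. Most markers were highest in their own class, with exceptions in the nephron progenitors (Meox1), the glomerular precursors (Wt1 and Aldh1a2), the proximal precursors (Hnf4a and Jag1), the loop of Henle (Egf), the collecting duct (Aqp3 and Hsd11b2) and the stroma (Foxd1). The libraries shared 5 cell barcodes. Levels are given as CPM, UMIs per 1000000 UMIs summed over a class in 1 library. As a background, a UMI of any of the 10 claudins was found in at most 5.13% of immune cells, at median depths of 9806.5 and 10056 UMIs. Other backgrounds were higher for some claudins. Mean levels in erythroid cells were 14.8 CPM for Cldn5 and 12.0 CPM for Cldn10, though lower than in immune cells for Cldn1, Cldn3 and Cldn16. Barcodes of 10 to 100 UMIs had Cldn5 at 141 and 65.0 CPM, Cldn3 at 58.7 and 27.1 CPM and Cldn10 at 29.8 and 81.3 CPM. The part of free RNA in these shares and levels was not tested.

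No claudin of the set reached 10 CPM in both libraries in nephron progenitors, mural cells, immune cells or erythroid cells, whereas 8 did so in the distal precursors, 7 in the loop of Henle and 6 in the ureteric tip. In all, 56 of the 180 pairs of claudin and class reached that level. Cldn6 was the most widespread, in 10 classes, and Cldn3 followed with 9. Cldn2 and Cldn16 were the most restricted, with 2 classes each. The heat map of levels shows these blocks for each library.

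**Figure D1:**
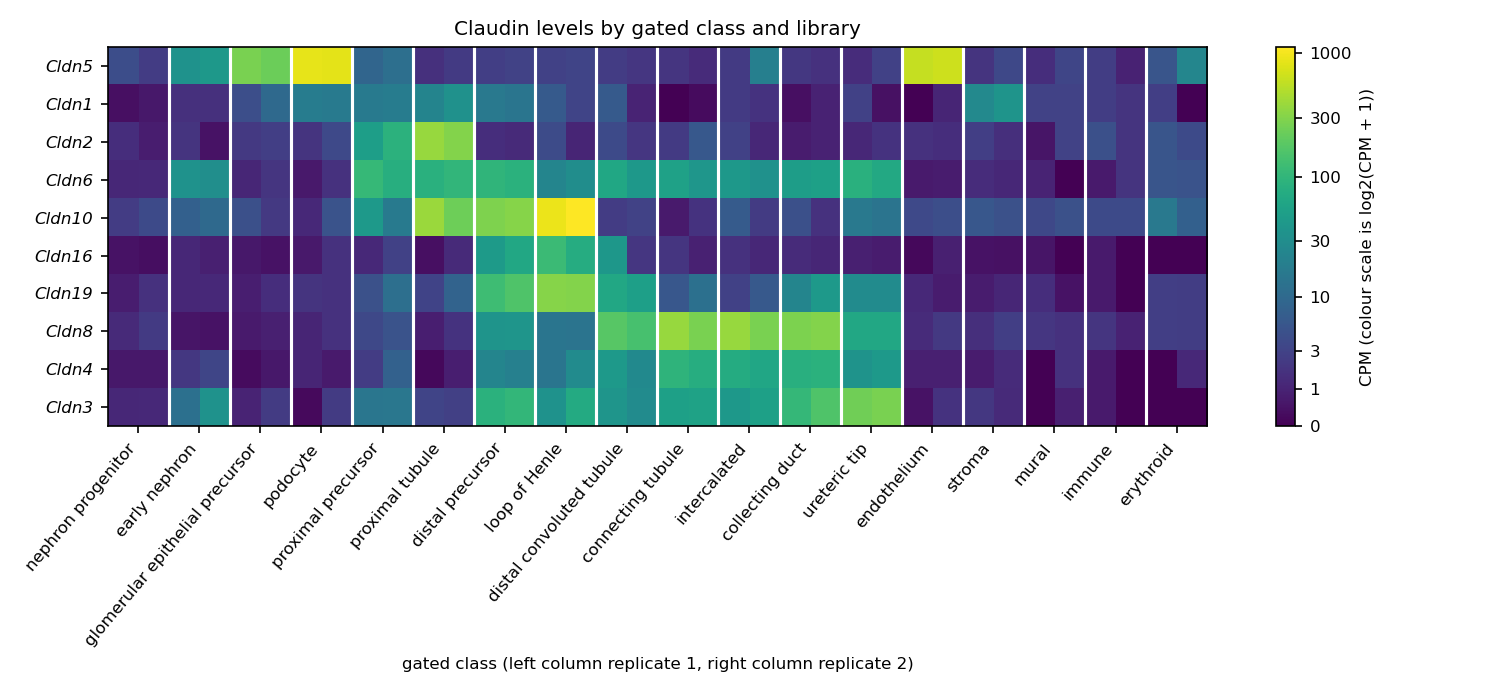
Level of the 10 claudins (rows) in 18 gated cell classes (columns, replicate 1 left and replicate 2 right of each pair) as a colour on the scale log2(CPM + 1). Bright blocks mark Cldn5 in podocytes (875 and 842 CPM) and endothelium (606 and 661 CPM), Cldn10 in the loop of Henle (915 and 1128 CPM), and Cldn8 from the distal convoluted tubule to the collecting duct.

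Classes were compared in 13 steps, most of them between neighbouring segments, each written as a first class minus a second. Steps such as podocyte minus endothelium have no earlier and later class. The test was edgeR's quasi-likelihood test on UMI sums per library and class, with Benjamini-Hochberg adjustment over 16867 genes. All 10 claudins passed the filter on low counts. Of the 130 claudin tests, 71 (54.6%) passed an adjusted p of 0.05, 38 with a higher and 33 with a lower level in the first class. Of the 33, 9 came from endothelium minus the mean of nephron and collecting duct classes, as did 1 of the 38. Over all genes, 34.2% of tests passed, and between 7.78% and 59.4% in a given step. The steps share classes, so their calls are not independent of each other. Subtraction of an estimate of free RNA, which removed 0.391% to 75.8% of the UMIs of a class, kept 24 of the 71 calls past the threshold, gained 1 and reversed none. The share removed could differ between libraries, at 75.8% and 4.45% in endothelium and 45.9% and 0.457% in podocytes. In proximal precursors it was 2.99% and 3.44%. The part of such differences in the lost calls was not tested. Beside each step below stands the share of all genes called in it.

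**Figure D2:**
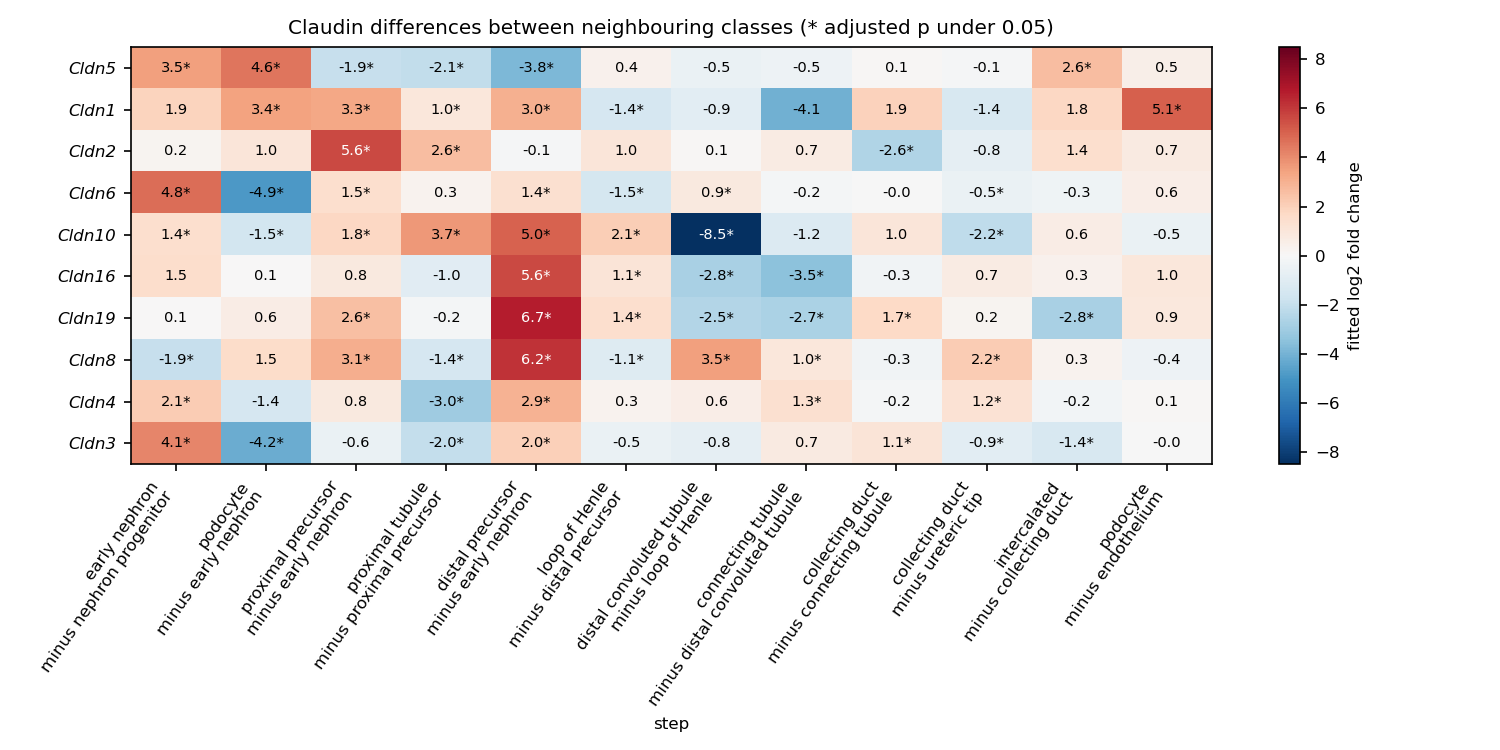
Fitted log2 fold change of each claudin (rows) in 12 of the 13 steps (columns, first-named class minus second-named class). A star marks an adjusted p under 0.05 in edgeR's quasi-likelihood test. The distal precursor column holds the most stars, 9 of 10, and the podocyte and endothelium column the fewest, 1 of 10.

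Of the 10 claudins, 5 rose with the first epithelium. In the early nephron, the Wnt4, Fgf8 and Lhx1 cells that form the first vesicles, Cldn6 stood at 34.6 and 31.6 CPM against 1.16 and 1.23 CPM in nephron progenitors (log2 fold change 4.76 ± 0.28 SE, adjusted p = 7.9e-13). Cldn5 stood at 35.1 and 41.2 CPM against 4.24 and 2.46 CPM (3.45 ± 0.36, adjusted p = 2.37e-08). Cldn3 stood at 12.3 and 34.5 CPM against 1.16 and 1.23 CPM (4.13 ± 0.45, adjusted p = 7.64e-08). For all 3, both early nephron values lay above both progenitor values. In total 6 of 10 claudins were called in this step, where 29.8% of all genes were: Cldn4 (2.13 ± 0.72) and Cldn10 (1.40 ± 0.50) also rose, at no more than 10.1 CPM. The mean level of Cldn10 in erythroid cells was 12.0 CPM. Cldn8 was called lower, on 3 UMIs in the early nephron against 40 in progenitors, a ratio of 0.256 with a 95% counting interval of 0.0507 to 0.804. With classes taken from clusters in place of gates, Cldn8 was higher in the early nephron (log2 fold change 1.86), so its direction here is not settled.

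Other junction genes came up at the same step. Of 27 tight junction genes other than claudins, 12 rose and 1 fell, with a median log2 fold change of 0.54 against -0.05 over all genes. Crb3, an apical polarity protein, went from 0.582 and 1.51 CPM to 31.3 and 28.6 CPM. Among 11 genes known as regulators of claudins or of kidney epithelium, 6 rose and 1 fell, among them Grhl2, an epithelial transcription factor (log2 fold change 5.02 ± 0.41). Cldn9, which sits 137 bases from Cldn6 on chromosome 17 and points towards it, stood at 57.2 and 52.4 CPM in progenitors and 17.0 and 17.7 CPM in the early nephron.

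On the glomerular branch Cldn5 climbed while the tubular claudins were left behind. Its level went from the early nephron values above through 271 and 231 CPM in the Ndnf and Wt1 glomerular precursors to 875 and 842 CPM in podocytes, the filtering epithelium of the glomerulus. Podocytes exceeded the early nephron by a log2 fold change of 4.57 ± 0.30 (adjusted p = 1.52e-12), and a Cldn5 UMI was found in 98.7% and 100% of podocytes. The share was 2.86% and 1.28% in immune cells, while podocytes had median depths of 8921 and 13128 UMIs. After thinning every cell to 3000 UMIs the podocyte shares were 91.6% and 93.2%. When precursor and podocyte cells were ordered by summed podocyte markers and divided into 4 equal bins, Cldn5 stood at 25.3, 387, 772.5 and 878.5 CPM in replicate 1 and at 12.6, 404, 859 and 829.6 CPM in replicate 2. Most of the increase lay in the first 3 bins, before the highest marker level.

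In the same step, podocyte minus early nephron, 5 of 10 claudins were called, against 54.1% of all genes. Cldn1, a sealing claudin best known from skin, stood at 18.0 and 17.1 CPM in podocytes against 1.65 and 1.68 CPM (3.44 ± 0.59, adjusted p = 1.61e-05), with a UMI in 21.1% and 24.2% of podocytes and in 2.86% and 2.56% of immune cells. Cldn6 fell from 34.6 and 31.6 CPM to 0.626 and 1.71 CPM (-4.91 ± 0.37, adjusted p = 1.22e-11). Cldn3 fell from 12.3 and 34.5 CPM to 0.209 and 2.39 CPM (-4.24 ± 0.59, adjusted p = 9.75e-07). Neither exceeded 2.39 CPM in podocytes, and the classes did not overlap for either gene. The fall of Cldn10 (-1.55 ± 0.62, adjusted p = 0.0386) lost its call without doublet removal (adjusted p = 0.0547). Of the 27 other junction genes 9 rose and 10 fell, with a median of -0.43 against -0.01 over all genes.

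Podocytes and endothelium are the cells on either side of the glomerular filter, and both carried Cldn5. Endothelium stood at 606 and 661 CPM, below podocytes in both libraries without overlap. The fitted difference, podocyte minus endothelium, was 0.47 ± 0.25 on the log2 scale, with a 95% interval of -0.06 to 0.99 and an adjusted p of 0.125. The call depends on the fit: adjusted p was 0.0448 with no filter on low counts and 0.00771 when only these 2 classes were fitted. With free RNA subtracted the difference shrank to 0.09 on the log2 scale and was not called. Cldn1 was the 1 claudin of 10 called between these classes, against 50.6% of all genes. It had 86 and 50 UMIs in podocytes and 0 and 12 UMIs in endothelium, where 0 UMIs allow up to 0.256 CPM in replicate 1.

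Within endothelium Cldn5 was uneven. The following genes were picked after values had been seen, so their values are a description. Cells without a UMI of Plvap, a protein of fenestrated capillaries and 1 of the endothelial markers, had Cldn5 at 992.5 and 1120.0 CPM, against 561 and 642 CPM in cells with one. Cells with Gja5, a connexin of arterial endothelium, had 795 and 876 CPM against 557.5 and 622 CPM in the rest. Cells with Ehd3, known from glomerular capillaries, had 515 and 558.5 CPM against 713 and 812 CPM. The direction was the same in both libraries for each of these genes. Vwf, Mki67 and Lyve1 were examined too, and for Lyve1 the levels were 423 against 618 CPM but 659 against 661 CPM in replicate 2. Depth differed as well: the median was 7111 and 9919 UMIs in Plvap-negative cells and 11291.5 and 13292 UMIs in Plvap-positive cells. It was 24435.5 and 21007 UMIs with Gja5 against 10446 and 12934 UMIs without. With Ehd3 it was 15792.5 and 16543.5 UMIs, against 9259 and 11072 UMIs without. The part of depth in the result was not tested.

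Against the mean of the 13 nephron and collecting duct classes, endothelium differed in all 10 claudins, where 59.4% of all genes were called. Cldn5 was higher (6.28 ± 0.15 on the log2 scale, adjusted p = 3.56e-23) and the other 9 were lower, with endothelial levels of 0 to 4.36 CPM. The mean is taken over fitted log2 levels, so classes near 0 weigh heavily in it. The plain mean of Cldn5 over the 13 classes was 93.2 and 89.6 CPM, against 606 and 661 CPM in endothelium. Podocytes, 1 of the 13 classes, stood above endothelium at 875 and 842 CPM. Among the other claudins, Cldn15 was higher in endothelium (7.27 ± 0.21), at 52.5 and 64.3 CPM. Esam (8.69 ± 0.15) and Jam2 (7.74 ± 0.18), adhesion molecules of endothelial junctions, were also higher there.

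**Figure D3:**
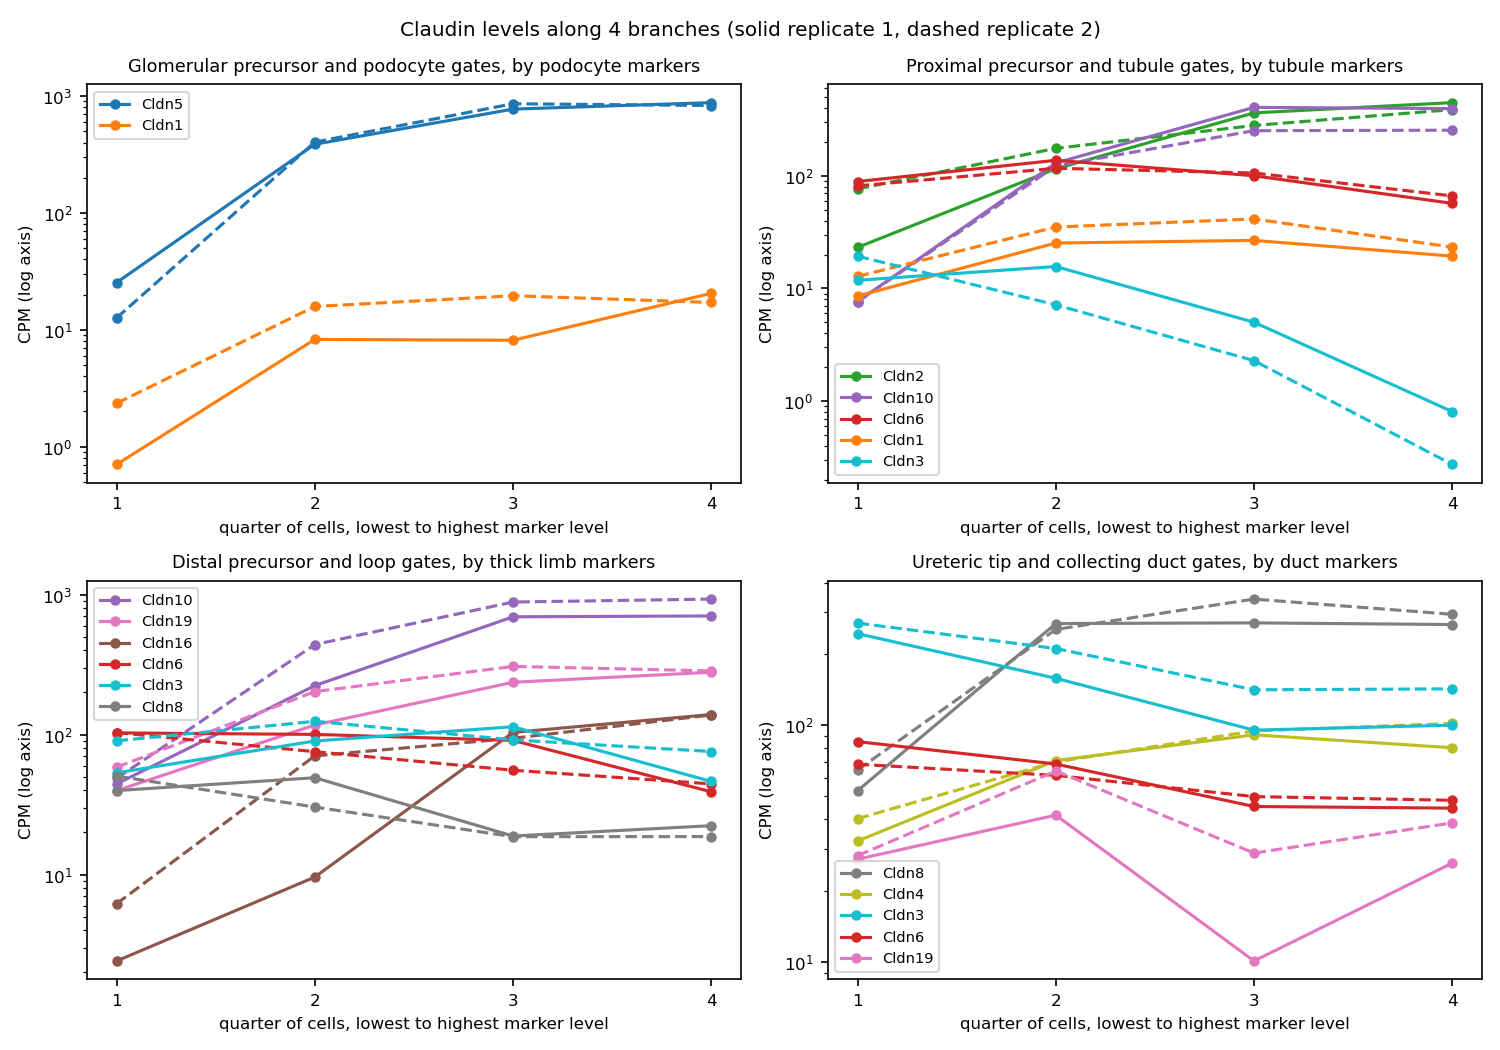
Claudin level (CPM, log axis) in 4 equal bins of cells ordered by the summed markers of the later class, for the glomerular, proximal, thick limb and collecting branches (solid lines replicate 1, dashed lines replicate 2). In both libraries the last bin exceeds the first for Cldn5 (glomerular), Cldn2 and Cldn10 (proximal), and Cldn8 and Cldn4 (collecting). The same holds for Cldn10, Cldn16 and Cldn19 in the thick limb panel. Cldn6 is lower in the last bin in the proximal, thick limb and collecting panels, and Cldn8 is lower there in the thick limb panel. Cldn19 in the collecting panel goes from 27.1 to 26.1 CPM in replicate 1 and from 28.1 to 38.7 CPM in replicate 2.

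The proximal branch gained Cldn2 and Cldn10. In the Cdh6 and Osr2 proximal precursors Cldn2 stood at 50.6 and 91.0 CPM, and in the proximal tubule, marked by the phosphate transporter Slc34a1, at 385 and 303 CPM. It rose at both steps (5.61 ± 0.47, adjusted p = 9.76e-10, and 2.62 ± 0.26, adjusted p = 7.1e-09). Outside these classes no library exceeded 5.90 CPM. A Cldn2 UMI was present in 97.5% and 95.6% of proximal tubule cells, with 5.0% and 2.56% of immune cells as background, and in 66.4% and 58.3% after thinning to 3000 UMIs. The median depths of proximal tubule cells were 35373 and 43087.5 UMIs.

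Cldn10 stood at 43.1 and 16.6 CPM in the precursors and at 388 and 237 CPM in the tubule (3.69 ± 0.32, adjusted p = 4.44e-10). The precursor values of the libraries lay far apart, and the rise of Cldn10 from the early nephron (1.75 ± 0.41, adjusted p = 0.00181) vanished with classes from clusters (log2 fold change 0.01). Along 4 bins of proximal tubule markers Cldn10 ran 7.64, 130.0, 405 and 395 CPM in replicate 1, and 7.62, 122, 251 and 254 CPM in replicate 2. Cldn2 was already at 23.2 and 76.5 CPM in the first bin and reached 446.5 and 387 CPM in the last. In both libraries Cldn10 changed little between the third and the last bin, while Cldn2 was highest in the last.

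Cldn6 took another course. It was 109 and 81.4 CPM in the precursors, above the early nephron (1.46 ± 0.20, adjusted p = 1.88e-06), and 86.1 and 101 CPM in the tubule, where the values overlapped with those of the precursors and the difference was 0.29 ± 0.17 (adjusted p = 0.184). The bins show a peak in the second, at 137 and 117 CPM, and 56.9 and 66.2 CPM in the last. Its UMIs were in 77.0% and 78.9% of tubule cells (0.714% and 2.56% of immune cells). Cldn1 stood at 17.4 and 18.3 CPM in the precursors and 22.6 and 34.4 CPM in the tubule (0.96 ± 0.32, adjusted p = 0.0159), a call lost with DESeq2 (adjusted p = 0.152), without the library block (0.0622) and without a gate margin (0.136).

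Claudins of other segments left the proximal branch. Between precursor and tubule Cldn3 fell from 14.95 and 15.19 CPM to 3.23 and 2.78 CPM (-2.01 ± 0.38), and in the last marker bin it was at 0.807 and 0.274 CPM. Cldn4 fell from 2.53 and 7.96 CPM to 0.175 and 0.795 CPM (-3.03 ± 0.57). Cldn5 (-2.07 ± 0.42) and Cldn8 (-1.41 ± 0.35) were lower too, from levels of at most 11.9 CPM. Each of these falls (Cldn3, Cldn4, Cldn5 and Cldn8) was lost under at least 1 alternative setting. That of Cldn3 was lost with free RNA subtracted (log2 fold change -3.60, adjusted p = 0.0569). In all, 7 of 10 claudins were called on entry to the proximal branch, where 29.8% of all genes were, and 7 of 10 between precursor and tubule, where 45.6% were. The entry calls of Cldn8 and Cldn19 reversed with classes from clusters (log2 fold changes -2.19 and -1.44), and both were under 12 CPM in the precursors. Of the 27 other junction genes 11 rose and 2 fell on entry (median 0.31 against 0.00 over all genes), Cgn, a cytoplasmic plaque protein, by 2.50 ± 0.31.

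The distal precursors, the Tfap2b, Irx1 and Pou3f3 cells, differed from the early nephron in 9 of 10 claudins, 8 higher and 1 lower, where 36.2% of all genes were called. Cldn19 stood at 128 and 161 CPM against 1.18 and 1.26 CPM (6.69 ± 0.44, adjusted p = 1.45e-11). Cldn16 stood at 45.6 and 67.0 CPM against 1.18 and 0.842 CPM (5.61 ± 0.68, adjusted p = 4.49e-07). Cldn10 stood at 285 and 313 CPM against 7.54 and 10.1 CPM (5.02 ± 0.39, adjusted p = 2.04e-10). The precursor values of all 3 lay above both early nephron values by more than an order of magnitude. The gate also held cells that already expressed the salt transporter Slc12a1 (2537 and 3141 CPM) and Umod, the thick limb protein uromodulin (188 and 156 CPM). Precursor and loop cells were ordered by thick limb markers into 4 equal bins, and 100% of the first bin came from the precursor gate. In that bin Cldn10 stood at 44.4 and 48.6 CPM, Cldn19 at 39.8 and 58.4 CPM and Cldn16 at 2.41 and 6.19 CPM. These values lie below those of the whole gate. The part of the Slc12a1 cells in the gate's levels was not tested.

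Claudins of the later duct were present in the distal precursors as well. Cldn8 stood at 37.3 and 37.7 CPM, 887 UMIs against 3 in the early nephron, a ratio of 82.8 with a 95% counting interval of 28.2 to 402. Cldn3 was at 86.9 and 103 CPM (2.01 ± 0.31), Cldn4 at 23.5 and 20.2 CPM (2.92 ± 0.44), Cldn6 at 99.6 and 88.0 CPM (1.37 ± 0.19) and Cldn1 at 16.4 and 14.4 CPM (3.05 ± 0.57). Cldn5 fell from 35.1 and 41.2 CPM to 2.73 and 3.05 CPM (-3.84 ± 0.36, adjusted p = 6.21e-09). Cldn2 was at 1.48 and 1.29 CPM and was not called. The 27 other junction genes counted 11 higher and 6 lower, with a median of 0.40 against 0.01 over all genes. Ildr1, a protein of tricellular junctions, went from 1.88 and 1.26 CPM to 31.7 and 34.3 CPM, and Casr, the calcium-sensing receptor, from 0.236 and 0 CPM to 47.0 and 46.9 CPM.

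In the loop of Henle, gated on Slc12a1, Umod, Ptger3, Egf and Kcnj1, the thick limb claudins reached their highest levels. Cldn10 stood at 915 and 1128 CPM (2.08 ± 0.29 above the distal precursors, adjusted p = 3.23e-06) and Cldn19 at 313 and 303 CPM (1.42 ± 0.24, adjusted p = 4.58e-05). Cldn16 stood at 119.8 and 77.1 CPM against 45.6 and 67.0 CPM (1.08 ± 0.37, adjusted p = 0.0277). For each of the 3 the loop values lay above both precursor values. The rise of Cldn16 was lost with DESeq2 (adjusted p = 0.323) and without the library block (0.0838), and it was -0.05 on the log2 scale with classes from clusters. With free RNA subtracted none of the 3 was called (adjusted p = 0.484 for Cldn10, 0.474 for Cldn19 and 0.735 for Cldn16). Their log2 fold changes were then 2.06, 1.48 and 1.20, close to those of the main fit.

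The same step lowered Cldn6, Cldn8 and Cldn1, so that 6 of 10 were called, against 30.3% of all genes. Cldn6 fell from 99.6 and 88.0 CPM to 23.5 and 30.3 CPM (-1.48 ± 0.20, adjusted p = 2.16e-06), and Cldn8 from 37.3 and 37.7 CPM to 14.3 and 14.1 CPM (-1.10 ± 0.22, adjusted p = 0.000311). Cldn1 fell from 16.4 and 14.4 CPM to 6.42 and 3.25 CPM (-1.44 ± 0.46, adjusted p = 0.0197), a call lost with DESeq2 (0.0716) and without the library block (0.0519). Cldn3, at 35.3 and 72.5 CPM, was not called (adjusted p = 0.142). Of the 27 other junction genes 5 rose and 6 fell (median -0.06, against -0.10 over all genes). Wnk4, a kinase that controls salt transport and claudin phosphorylation, rose from 36.3 and 60.9 CPM to 171 and 163 CPM.

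Both the proximal tubule and the thick limb held Cldn10. Cldn6 also passed 10 CPM in both classes, at 86.1 and 101 CPM in the tubule and 23.5 and 30.3 CPM in the loop. RefSeq lists 2 transcription starts each for Cldn19 and Cldn10, and those of Cldn10 lie 67.1 kb apart on chromosome 14. The 3' counts used here are per gene and cannot say which start was used in which segment. The 2 start regions are printed, with that of Cldn16, from 250 bases before the start to its first 10 transcribed bases, as given by RefSeq for GRCm38.p6, all on the plus strand and written 5' to 3'. Capitals mark matches to the motifs given after the sequences. The first Cldn10 region is chr14:118787621-118787880, the other is chr14:118854700-118854959, and that of Cldn16 is chr16:26462885-26463144.
Cldn10 start region 1: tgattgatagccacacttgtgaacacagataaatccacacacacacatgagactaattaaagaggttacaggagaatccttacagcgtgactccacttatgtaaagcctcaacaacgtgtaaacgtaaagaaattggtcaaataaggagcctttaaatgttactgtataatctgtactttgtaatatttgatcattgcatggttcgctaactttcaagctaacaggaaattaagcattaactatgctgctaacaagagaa
Cldn10 start region 2: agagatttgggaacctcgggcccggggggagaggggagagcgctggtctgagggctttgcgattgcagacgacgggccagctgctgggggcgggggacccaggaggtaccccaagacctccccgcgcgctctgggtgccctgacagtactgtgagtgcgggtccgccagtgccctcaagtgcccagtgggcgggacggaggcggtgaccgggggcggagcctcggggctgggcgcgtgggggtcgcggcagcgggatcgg
Cldn16 start region: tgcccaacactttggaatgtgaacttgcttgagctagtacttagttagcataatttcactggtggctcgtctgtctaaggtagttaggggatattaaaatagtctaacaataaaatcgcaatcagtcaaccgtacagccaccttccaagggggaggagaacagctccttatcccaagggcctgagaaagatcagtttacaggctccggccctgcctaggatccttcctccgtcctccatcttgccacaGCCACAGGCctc

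Of these regions, that of Cldn16 holds the letters GCCNNNGGC, a TFAP2 motif, from 2 bases before the start and across it. On either strand 16.6% of 32851 mouse promoter windows of 300 bases hold this motif. Other motifs searched were CCGGTT for GRHL (6.83% of windows), CAAAGTCCA for HNF4 (0.475%) and CCGGAAGT for ETS (3.89%). The 2 Cldn10 regions also differ in base composition, with 35.8% and 72.7% G and C. In the full 300-base windows 9 of the 10 claudins had an entry, and the TFAP2 motif was also matched in Cldn3. A match is a string of letters in a window, not a bound site.

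Cell by cell, detection of Cldn16 in the loop went against that of Cldn10. Cldn10 was found in 94.3% and 93.5% of loop cells, Cldn19 in 97.7% and 99.1%, and Cldn16 in 56.8% and 45.8%, against at most 5.13% of immune cells for any of them; loop cells had median depths of 22250 and 30796 UMIs. After thinning to 3000 UMIs the shares were 84.1% and 86.9% for Cldn10, 59.1% and 67.3% for Cldn19 and 26.1% and 14.95% for Cldn16. The loop cells without a Cldn10 UMI numbered 5 of 88 in replicate 1 and 7 of 107 in replicate 2. All 12 carried Cldn16, with 2 to 21 UMIs per cell in replicate 1 and 8 to 16 in replicate 2. Of the cells with Cldn10, 54.2% and 42.0% carried Cldn16.

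The Cldn10-negative cells carried the loop transporter. Their Slc12a1 level was 11300 and 9123 CPM, against 7543 and 6704 CPM in the Cldn10-positive cells, while Umod was lower, at 576.5 and 1084 CPM against 2115 and 1823 CPM. Cldn16 stood at 449.7 and 402 CPM in them and at 109 and 55.7 CPM in the Cldn10-positive cells. The odds ratio of detecting Cldn10 and Cldn16 together was 0.107 and 0.0484, and 0.199 and 0.112 after thinning. Cells of a library are not replicates, so these values have no test, and the result rests on 12 cells. In the distal precursors the odds ratio of the same pair was 1.91 and 1.12.

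**Figure D4:**
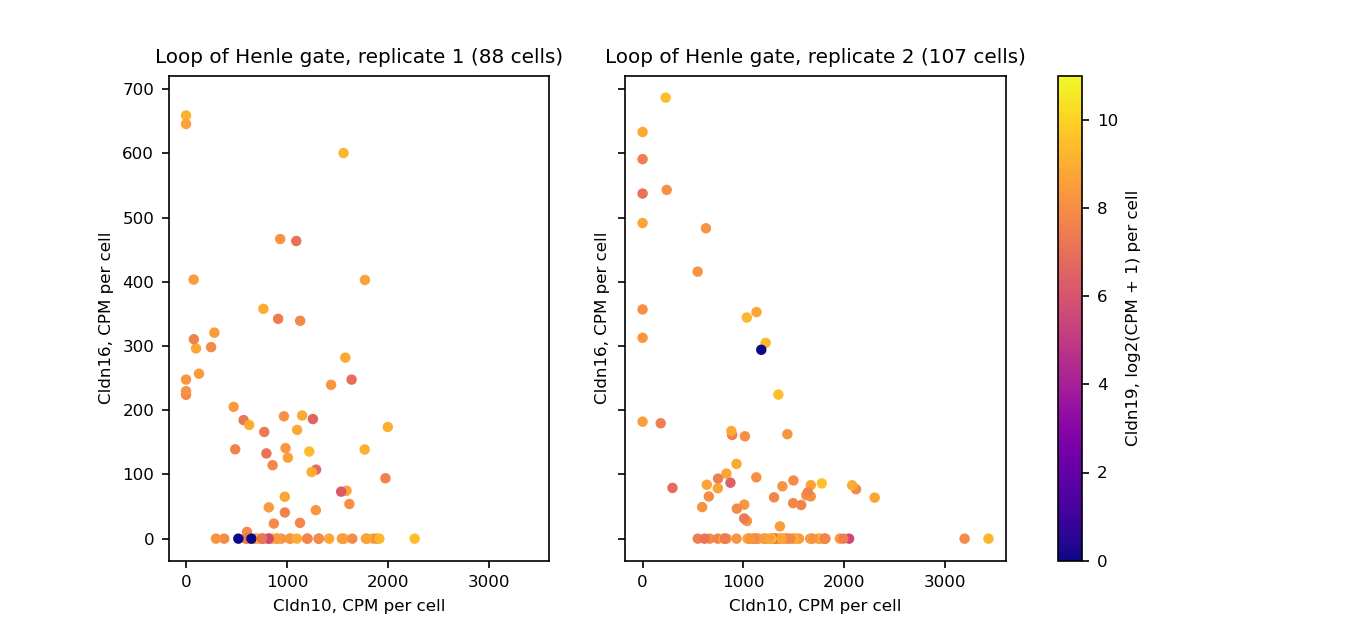
Cldn16 against Cldn10 (CPM per cell, linear axes) in every cell of the loop of Henle gate, replicate 1 left and replicate 2 right, coloured by log2(Cldn19 CPM + 1). The cells at 0 Cldn10, 5 of 88 and 7 of 107, all lie above 0 Cldn16, whereas the cells at 0 Cldn16 spread along the Cldn10 axis.

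Loop cells were also ordered by their share of Cldn10 UMIs into 3 equal tiers, of which the lowest holds the cells without Cldn10 just described. Cldn16 stood at 182, 73.6 and 104.5 CPM from the lowest to the highest tier in replicate 1, and at 165, 23.5 and 36.8 CPM in replicate 2, lowest in the middle tier of both. Cldn19 was similar in the tiers, at 298, 301 and 361 CPM and at 288, 314 and 309 CPM. Some thick limb genes, picked after values had been seen, were highest in the lowest Cldn10 tier: the potassium channel Kcnj10 at 111, 33.0 and 16.9 CPM and at 126, 50.01 and 20.3 CPM, and the calcium-sensing receptor Casr at 203, 105.7 and 126.5 CPM and at 105, 33.8 and 37.7 CPM. Pth1r, the parathyroid hormone receptor, ran 349, 149 and 128 CPM and 214, 108 and 107 CPM. Umod was not, at 2084, 2020 and 2135 CPM and at 1541, 1759 and 2100.0 CPM. Slc12a1 stood at 8142, 7693 and 6755 CPM and at 6985, 6682 and 6915 CPM. Median depths were 21595, 29902 and 20293 UMIs in replicate 1 and 30138, 33383 and 25984 UMIs in replicate 2.

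Cldn16 and Cldn19 were often detected in the same distal precursors. A Cldn19 UMI was in 87 of 95 precursor cells with Cldn16 in replicate 1 and in 113 of 118 in replicate 2, with odds ratios of 5.38 and 10.6 (4.70 and 9.94 within bins of depth, and 1.82 and 3.58 after thinning to 3000 UMIs). Along thick limb markers, over distal precursors and loop cells, Cldn19 was at 39.8 and 58.4 CPM in the first of 4 bins and Cldn16 at 2.41 and 6.19 CPM. In the last bin they were at 279 and 285 CPM, and at 139 and 138 CPM. Relative to its last bin, Cldn16 thus started lower than Cldn19 in both libraries. In the loop itself nearly every cell had Cldn19, and the odds ratio of this pair was 6.92 and 0.276, on opposite sides of 1. After thinning it was 0.265 and 0.569, below 1 in both libraries, with 8 and 9 cells holding both genes. For Cldn10 with Cldn19 the odds ratio was 2.96 and 4.42, and 1.12 and 4.4 after thinning.

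The distal convoluted tubule, gated on the thiazide-sensitive transporter Slc12a3, exchanged thick limb claudins for Cldn8. Cldn10 fell from 915 and 1128 CPM to 2.53 and 2.999 CPM, a log2 change of -8.45 ± 0.51 (adjusted p = 1.03e-11), and rested on 2 and 6 UMIs there. Cldn19 fell to 66.9 and 52.0 CPM (-2.50 ± 0.28, adjusted p = 4.33e-07). Cldn8 went up from 14.3 and 14.1 CPM to 182 and 144 CPM (3.47 ± 0.22, adjusted p = 1.75e-11), and Cldn6 from 23.5 and 30.3 CPM to 64.4 and 41.0 CPM (0.85 ± 0.23, adjusted p = 0.0116). Together with Cldn16 this made 5 of 10 claudins, where 14.9% of all genes were called. The call of Cldn6 was lost without a gate margin (adjusted p = 0.146). With free RNA subtracted the fall of Cldn10 was still called (adjusted p = 0.0118). The calls of Cldn8 (0.21), Cldn19 (0.238), Cldn16 and Cldn6 were lost, at log2 fold changes of 3.54, -2.45, -2.35 and 0.95.

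The level of Cldn16 in the distal convoluted tubule differed between libraries, 40.4 CPM against 1.999 CPM, or 32 and 4 UMIs. In replicate 1 1 cell with 311 Slc12a1 UMIs and 2 Slc12a3 UMIs held 12 of the 32. Slc12a1 was 463.5 CPM in that library's class and 8.996 CPM in the other's. Both values of Cldn16 lay below the loop (-2.76 ± 0.52, adjusted p = 0.000421). This call was kept without that cell but lost with free RNA subtracted (log2 fold change -2.35, adjusted p = 0.521). Its further fall to the connecting tubule (-3.46 ± 0.88, adjusted p = 0.0139), at 1.99 and 0.907 CPM, was lost when barcodes from 1000 UMIs were included (adjusted p = 0.0797) and with a wider gate margin (0.109).

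From the distal convoluted to the connecting tubule, marked by the calcium channel Trpv5, 4 of 10 claudins were called, against 7.78% of all genes. Cldn8 rose to 383 and 274 CPM (0.96 ± 0.18, adjusted p = 0.000799) and Cldn4 from 44.2 and 27.0 CPM to 96.7 and 77.8 CPM (1.34 ± 0.32, adjusted p = 0.00779). Cldn19 fell to 5.65 and 12.2 CPM (-2.69 ± 0.35, adjusted p = 8.79e-06). Levels of Cldn8 and Cldn4 in the connecting tubule lay above those of the distal convoluted tubule in both libraries. The call of Cldn4 was lost with a wider gate margin (adjusted p = 0.102). Among the regulators, 5 of 11 rose and 1 fell, led by Elf5 (4.72 ± 0.80) and Klf5 (4.52 ± 1.21).

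Cldn8 was also high in the rest of the distal system. It stood at 282 and 301 CPM in the collecting duct and 384 and 271 CPM in intercalated cells, the acid-base cells of the duct. These classes and the connecting tubule overlapped between libraries, with differences of -0.32 ± 0.17 (95% interval -0.67 to 0.04, collecting duct minus connecting tubule) and 0.27 ± 0.17 (95% interval -0.08 to 0.63, intercalated minus collecting duct). A Cldn8 UMI was in 78.2% and 83.0% of connecting tubule cells, 98.3% and 95.05% of collecting duct cells and 96.8% and 92.0% of intercalated cells, against 2.14% and 1.28% of immune cells. Median depths were 17141 and 25026, 20749 and 28473, and 21668 and 31228.5 UMIs. Cldn4 was likewise close in the 3 classes, between 63.1 and 96.7 CPM, and not called in either comparison.

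**Figure D5:**
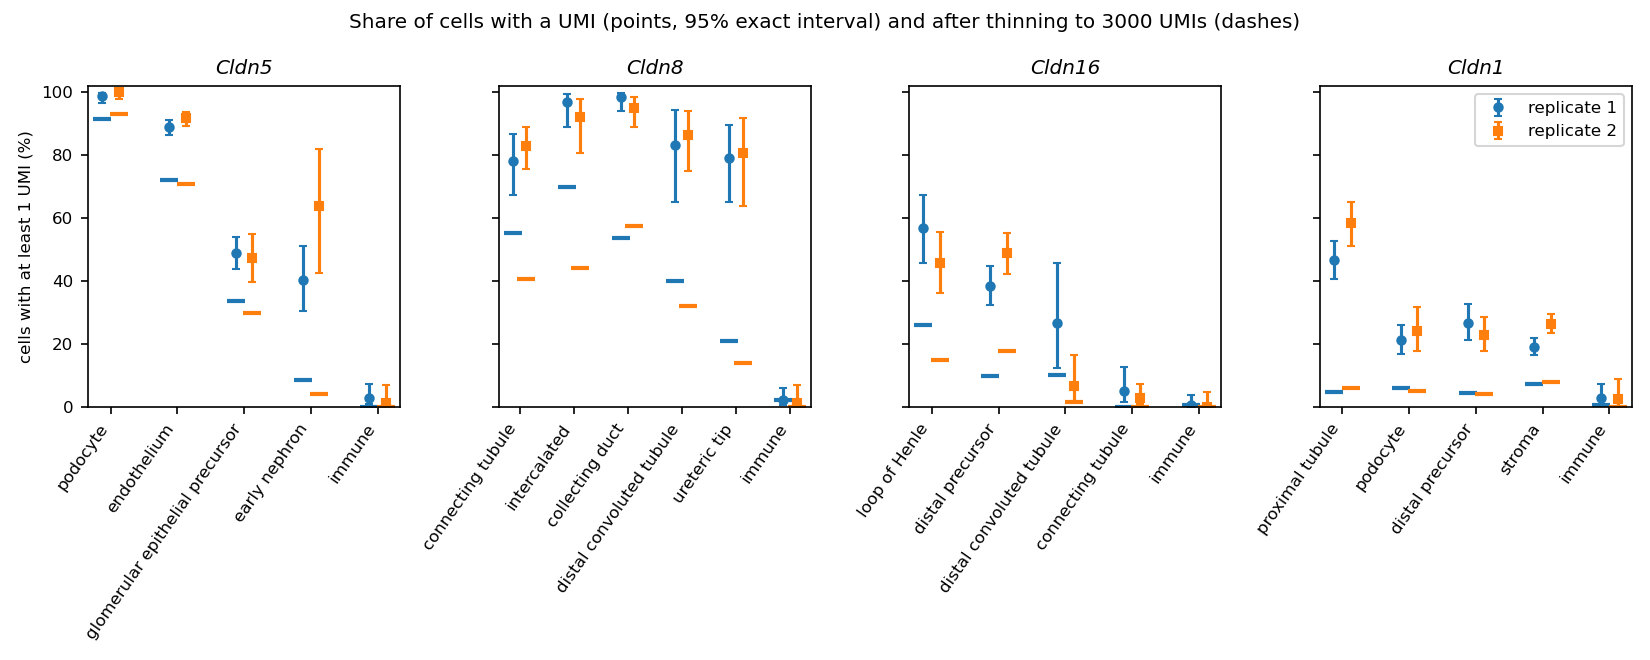
Share of cells with at least 1 UMI of Cldn5, Cldn8, Cldn16 and Cldn1 by class (points with 95% exact binomial intervals for counting error, circles replicate 1 and squares replicate 2); horizontal dashes give the share after thinning each cell to 3000 UMIs. The immune class at the right of each panel shows the background, at or under 2.86% for these claudins.

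Within the ureteric tree, tip and duct differed in which claudin prevailed. The Ret and Wnt11 tip, where the tree branches, had Cldn3 at 244 and 272 CPM and the collecting duct had 106 and 163 CPM (-0.91 ± 0.26, adjusted p = 0.00812). Cldn8 was at 67.4 and 67.0 CPM in the tip (2.18 ± 0.18 higher in the duct, adjusted p = 7.88e-10) and Cldn4 at 35.8 and 42.3 CPM, against 84.4 and 87.9 CPM in the duct (1.22 ± 0.27, adjusted p = 0.000849). For each of these genes the values of the classes did not overlap. Cldn6 fell from 86.7 and 68.8 CPM to 49.0 and 52.9 CPM (-0.54 ± 0.19, adjusted p = 0.0259) and Cldn10 from 16.1 and 14.0 CPM to 4.54 and 1.69 CPM (-2.19 ± 0.51, adjusted p = 0.00125). That made 5 of 10, against 34.7% of all genes. The falls of Cldn3 and Cldn6 were lost without the library block (adjusted p = 0.0614 and 0.054), that of Cldn3 also with DESeq2 (0.0745), and both without a gate margin (0.0695 and 0.315).

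Along 4 bins of collecting duct markers over tip and duct cells, Cldn8 went from 52.9 to 269 CPM between the first and second bin of replicate 1 and from 64.7 to 254 CPM in replicate 2, and then stayed between 254 and 341 CPM. Cldn4 went from 32.4 and 40.3 CPM in the first bin to 80.3 and 101.8 CPM in the last. Cldn3 ran downward from 244 and 270.3 CPM to 100.1 and 142.5 CPM, and Cldn6 from 85.3 and 68.4 CPM to 44.6 and 48.2 CPM. Of the 11 regulators 7 were higher in the duct and none lower, with a median of 1.56 against 0.01 over all genes. Elf5 was the leader (5.20 ± 0.36), at 182 and 172 CPM in the duct.

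Against the connecting tubule, the collecting duct differed in 3 of 10 claudins, where 27.7% of all genes were called. Cldn3 was higher (1.11 ± 0.28, adjusted p = 0.00342) and Cldn19 was higher (1.68 ± 0.33, adjusted p = 0.000258), while Cldn2 was lower at 0.698 and 0.939 CPM against 2.33 and 5.90 CPM (-2.57 ± 0.70, adjusted p = 0.00648). None of the 3 was called with classes from clusters (adjusted p = 0.302, 0.24 and 0.0533). Intercalated cells differed from the collecting duct in 3 of 10, against 24.1% of all genes: Cldn3 at 41.0 and 53.4 CPM (-1.38 ± 0.30, adjusted p = 0.00124), Cldn19 at 2.93 and 6.06 CPM (-2.77 ± 0.46, adjusted p = 4.73e-05) and Cldn5. The Cldn5 call (2.62 ± 0.61, adjusted p = 0.00192) rests on 1 cell of replicate 2 that held 30 of 33 UMIs, along with 33 UMIs of endothelial markers. Without it the log2 fold change was 0.19 and the adjusted p 0.908.

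Cldn19, known from the thick limb, was also measured in the ureteric tree. It stood at 23.6 and 43.7 CPM in the collecting duct and 29.0 and 28.3 CPM in the tip, with a UMI in 33.1% and 48.5% of duct cells and 54.2% and 58.3% of tip cells, against 2.18% and 1.35% of endothelial cells, at median depths of 20749 and 28473, 52432 and 31438, and 10682 and 13143 UMIs. There were 2.61 and 3.93 Cldn19 UMIs for each Cldn16 UMI in the loop, but 16.9 and 38.8 in the collecting duct and 33.0 and 39.5 in the tip, where Cldn16 had 2 to 8 UMIs a library. Umod was at 2.09 and 3.19 CPM in the duct, against 2068 and 1777 CPM in the loop.

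Cldn1 was the 1 member whose highest level lay outside the epithelium. The stroma had 26.7 and 37.4 CPM, a range that overlapped with the proximal tubule at 22.6 and 34.4 CPM. A UMI was found in 18.9% and 26.4% of stromal cells, against 2.86% and 2.56% of immune cells, with median depths of 11012.5 and 15902.5 UMIs in stroma. The connecting tubule had the lowest mean, with 0 and 1 UMI, where a floor of 3 counts is 0.997 and 0.680 CPM. Nephron progenitors, at 0.332 and 0.568 CPM, and endothelium, at 0 and 1.05 CPM, were not resolved from it. Cldn1 and Cldn16 lie 91.3 kb apart on chromosome 16 and are read in opposite directions, yet their levels were highest in different classes.

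Each claudin's profile over the 18 classes was compared with 13800 genes by the Pearson correlation of log2(CPM + 5) averaged over libraries, a description over 18 points that share libraries and depth. The nearest to Cldn2 was Acsm1 (r = 0.994), to Cldn3 Rnf43 (0.985) with Grhl2 at 0.977, to Cldn6 Grb7 (0.973) and to Cldn10 Slc9a3 (0.95), the sodium-proton exchanger of proximal tubule and thick limb. Cldn4 and Cldn8 were among each other's 3 nearest genes (0.975), and Cldn16 was the second nearest to Cldn19 (0.90). Cldn16 itself lay nearest to Slc12a1 (0.98), a marker used for the loop gate, and Cldn5 to Nebl (0.953) and the podocyte marker Podxl (0.932). Cldn1 had the loosest match, Creb3l1 at 0.85.

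Positions in GENCODE M21 (GRCm38) bear on 4 of the counts. Cldn3 (chromosome 5, 134986214 to 134987472) overlaps Wbscr25 on the other strand, Cldn19 (chromosome 4, 119255414 to 119262438) overlaps Gm12927 and Cldn10 (chromosome 14, 118787908 to 118875489) overlaps n-R5s51, likewise on the other strand, and Cldn6 (chromosome 17, 23679249 to 23682446) ends 137 bases from Cldn9. Whether counting used strand is not given in the sources used here. Cldn6 and Cldn9 had opposite levels in progenitors and in the proximal tubule, where Cldn9 was at 3.15 and 2.48 CPM.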

How the data were processed

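Gene-by-barcode UMI counts from 10x Genomics libraries were used as deposited: raw counts of 2 samples from the authors, Cell Ranger 4 per the file headers, while the submitters' processing notes name Cell Ranger 6.0.1 and mm10. Cells had at least 3000 UMIs, 500 genes and at most 20% mitochondrial UMIs; Scrublet doublets were removed (245 and 142 barcodes). Cells were gated on 104 marker genes (at least 2 with a UMI, score margin 0.1), and UMIs were summed per library and class. The 36 sums were fitted with edgeR 4.0.16 (R 4.3.3, filterByExpr, TMM, quasi-likelihood, library as a block, 17 residual degrees of freedom), with Benjamini-Hochberg adjustment over 16867 genes and 103 gate markers left out. The replicate numbers do not come from the labels' design, and the block pairs classes of 1 library. The fit was tested on simulated data. Intervals are exact (95%) and, like floors of 3 counts, cover counting error only. Clusters (Leiden, scanpy 1.11.5, resolution 3, 60 clusters) and DESeq2 1.42.0 were alternatives.

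The members and gene lists were chosen with earlier results of these data known. Named by rule were the 10 claudins, other claudins with at least 10 UMIs, up to 3 called junction genes and 2 called regulators per step with the largest change, and the 3 genes most like each claudin. Leaving out 1 intercalated or 1 distal convoluted tubule cell, and the alternatives for the count of claudin and class pairs at 10 CPM, were chosen after seeing the data. Some genes of the regulator list, and 1 motif searched, are not reported here by name.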

Additional observations from a re-analysis of the deposited data

Results flagged for a closer look

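Cldn18 had 88 UMIs in barcodes of 10 to 100 UMIs in replicate 1 and 0 in replicate 2, while the called cells of these libraries held 11 and 3 UMIs; these near-empty barcodes enter no comparison of the report.

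Cldn4 stood at 303.9 CPM in the urothelium gate of replicate 1 and at 172.6 CPM in replicate 2, from 53 and 32 UMIs in 8 and 6 cells. The gate was too small for the fit, and its level lay above that of each class in the fit, where no library exceeded 96.7 CPM.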

How the results depend on the processing

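The 71 claudin calls became 66 without the library block (no replicate block), with 3 calls in place of 5 between collecting duct and tip. Across the settings other than clusters and free RNA, 963 of 992 comparisons with the reported fit kept direction and side of the threshold, 27 lost their call, 2 gained one and 0 reversed. With free RNA subtracted there were 25 calls, 24 of the 71 and 1 gained. Among them were 3 (early nephron), 1 (proximal precursor), 3 (proximal tubule), 4 (distal precursor), 1 (distal convoluted tubule) and 2 (podocyte minus endothelium). The loop, connecting tubule, intercalated cells and both collecting duct steps had 0 each. The rest of the 25 lay in podocyte minus early nephron and in endothelium minus the mean of nephron and collecting duct classes. With classes from clusters, podocyte minus early nephron had 8 calls and collecting duct minus connecting tubule 0; reversed were Cldn8 in the early nephron (1.86) and proximal precursor (-2.19), Cldn19 in the proximal precursor (-1.44) and Cldn16 in the loop (-0.049). Connecting tubule minus distal convoluted tubule had 2 calls with the gate margin doubled, collecting duct minus tip 3 with no margin, and podocyte minus endothelium 2 with no filter and 2 with only the classes compared. The odds ratio of Cldn16 and Cldn19 in the loop of replicate 1 was 0.265 after thinning (6.92 before). The cause was not tested in any of these. Pairs of claudin and class at 10 CPM numbered 58 to 63 when either library was left out; folds from 1 library have no test, and none of 73 reversed, but 26 moved by more than their fitted SE without replicate 1 and 27 without replicate 2. The doubled margin left too few early nephron cells, so its steps gave no value. Depth limits classes of few cells, such as the 25 early nephron cells of replicate 2.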

Other observations

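Claudins outside the 10 were also patterned. Cldn7 had the most UMIs of the 22 others, 27270, and stood at 297 and 347 CPM in the ureteric tip and at 295 and 327 CPM in the collecting duct, against 1.91 and 5.77 CPM in nephron progenitors. It rose in the early nephron (log2 fold change 4.38 ± 0.24 SE, adjusted p = 2.48e-13 in edgeR's quasi-likelihood test). Cldn12 was highest in the proximal tubule, at 25.5 and 28.7 CPM. Cldn14, a thick limb claudin known to act against Cldn16, stood at 13.2 and 4.87 CPM in the loop of Henle and at 3.59 and 2.77 CPM in the distal precursors.

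In the stroma Cldn1 and Cldn11 marked different cells. Cldn11 was at 31.7 and 37.0 CPM, with a UMI in 18.1% and 21.1% of stromal cells. Both genes were found together in 14 and 18 cells, where independent detection gives 28.6 and 45.4, an odds ratio of 0.394 and 0.270. The following genes were picked after values had been seen. Cells with only Cldn1 had Foxd1 at 144 and 184 CPM and Gdnf at 246 and 227 CPM, against 13.6 and 26.2 CPM and 10.3 and 12.0 CPM in cells with only Cldn11. Cells with only Cldn11 had Tagln at 662 and 906 CPM, against 42.4 and 84.0 CPM. These are descriptions of cells within 2 libraries, with no test.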
